A study of Mus musculus with 18 samples.

Results

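The aminoacyl-tRNA synthetases were followed across 18 Illumina mouse bead arrays in 6 groups of 3. The genes were taken by symbol: a letter for the amino acid followed by "ars", with a final 1, a final 2 or no digit, plus Farsa, Farsb, Fars2 and Eprs. This gave 35 genes of the 19057 named on the array and 77 of its 45281 probes. Symbols ending in 2, which are the mitochondrial enzymes, made up 16 of the genes, and the other 19 were counted as cytosolic. After probes were kept where they stood above background (detection p under 0.05) on at least 3 arrays, 65 of the 77 probes and 33 of the 35 genes could be tested, all 19 cytosolic and 14 mitochondrial. Hars2 and Yars2 had no probe detected on any array.

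The cells were hepatocytes from C57BL/6N AhR-/- mice that had been transformed with SV40 tsA209. AhR, the aryl hydrocarbon receptor, is a transcription factor that is activated by planar aromatic ligands. One line carried the tetracycline repressor (TetR, pLenti6/TR) alone and is called AhR-null. The other carried TetR and a HisMyc-tagged mouse AhR (pLV501_HisMyc_mAhR) and is called reconstituted, so both lines lack the endogenous receptor and both carry TetR and SV40. Each line was kept for 8 h in one of 3 conditions: adherent with 0.1% DMSO, adherent with the AhR ligand YH439 at 10 µM, or in suspension in 1.68% methylcellulose after 0.05% trypsin/EDTA. All groups were held at 34 °C in 10% serum with 100 nM dexamethasone. The labels name DMSO for neither YH439 nor suspension, so suspension also differed from its controls by trypsin, methylcellulose and possibly DMSO. The labels speak of biological triplicates but not of separate cultures, and the spread that the p-values are measured against may therefore be technical.

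Synthetases join each amino acid to its tRNA, the step that gives the genetic code its meaning and feeds the ribosome. Animals keep largely separate sets of nuclear genes for the cytosol and for the mitochondrion. Gars and Kars are exceptions and supply both compartments. Several cytosolic enzymes sit with small scaffold proteins in the multisynthetase complex, and Eprs carries the glutamate and the proline activity in a single chain. When amino acids run short or proteins misfold, phosphorylation of eIF2 alpha favours translation of the transcription factor ATF4, which is known to act on genes of amino acid synthesis and transport and on several cytosolic synthetase genes.

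Each array detected 42.01% to 44.61% of the probes, with a median intensity of 6.032 to 11.91. The 6 dimmest arrays (6.032 to 7.188) were replicate 3 of all AhR-null groups and replicate 1 of all reconstituted groups. The single Ahr probe was detected on 1 of 18 arrays, an AhR-null array with DMSO, so it could not check the line labels. The hepatocyte label had little support from its markers: 3 of 13 were found on every array and 8 on no array (Alb, Apoa1, Apob, Cps1, Cyp2e1, Fgb, Tat and Ttr). Markers found on every array numbered 8 of 10 for mesenchymal and stellate cells, 2 of 4 for bile duct, 2 of 4 for macrophages and 0 of 5 for endothelium. In bulk RNA, fewer cells of a type and less RNA per cell cannot be told apart.

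The promoters of the members were read for TGATGNAA, the composite element bound by ATF4 with a C/EBP partner and known from several cytosolic synthetase genes. The windows were RefSeq's for GRCm38.p6, 250 bases before to 50 after a promoter's start, and both strands were searched. That start can lie inside the gene, as for Aars, whose locus begins at chr8:111027778. A window was in the table for 12 of the 19 cytosolic and 14 of the 16 mitochondrial genes. The element matched in 5 of the 12 cytosolic genes (41.67%) and in 0 of the 14 mitochondrial genes, against 3.97% of all 32851 windows and 4.51% of the 27025 genes. The windows below hold these matches in capitals, each 5′ to 3′ on the strand of its gene. TTGCATCA and TTTCATCA are the element read on the other strand.
Aars chr8:111033704-111033763 (+), match 112 bases before the start: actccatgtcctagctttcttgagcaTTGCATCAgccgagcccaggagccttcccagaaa
Aars chr8:111033840-111033869 (+), match 9 bases after the start: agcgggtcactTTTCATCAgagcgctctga
Gars chr6:55037945-55038004 (+), match 30 bases before the start: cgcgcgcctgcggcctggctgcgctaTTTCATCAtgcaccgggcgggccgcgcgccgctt
Iars chr13:49682126-49682155 (+), match 7 bases after the start: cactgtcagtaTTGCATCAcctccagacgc
Tars chr15:11399640-11399699 (−), match 15 bases before the start: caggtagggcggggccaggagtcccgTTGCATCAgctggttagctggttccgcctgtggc
Yars chr4:129189895-129189924 (+), match 3 bases after the start: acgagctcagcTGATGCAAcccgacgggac

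The 5 genes with a match encode the enzymes for alanine (Aars), glycine (Gars), isoleucine (Iars), threonine (Tars) and tyrosine (Yars). Their log2 changes in suspension lay between 0.30 and 0.64 in reconstituted cells and between 0.25 and 0.56 in AhR-null cells, and of the 5 only Aars and Iars passed the test in the fit without a block, in both lines, while Gars, Tars and Yars passed in neither. The 7 cytosolic genes with a window and no match lay between -0.38 and 0.63 and between -0.44 and 0.78, with medians of 0.04 and -0.05 against 0.50 and 0.41 for the genes with a match. Sars, the serine enzyme, had the largest rise among those 7. Cars and Nars, described below, had no window in the table. Of the other motifs, TGACNNNGC, the core of the antioxidant response element, matched in 3 of 12 cytosolic and 3 of 14 mitochondrial genes, against 13.99% of genes. GCGTG, the core of the AhR element, matched in 9 of 12 (75%) and 10 of 14 (71.43%), against 35.15% of genes. The windows were not matched for base composition, and a match describes letters, not binding.

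In suspension, more cytosolic genes were called higher than lower in both lines. Mitochondrial calls were few, with 0 higher and 4 lower in reconstituted cells and 1 higher and 2 lower in AhR-null cells. In reconstituted cells 5 of the 19 cytosolic genes rose against DMSO (Cars, Nars, Sars, Aars and Iars) and 2 fell (Kars and Vars), with a median log2 change of 0.30. None of the 14 mitochondrial genes rose there and 4 fell (Rars2, Lars2, Aars2 and Vars2), with a median of -0.11. The counts are calls at an adjusted p under 0.05 (limma, Benjamini-Hochberg over 11149 genes), a threshold that 24.1% of all genes passed, 10.7% higher and 13.4% lower, around an overall median of -0.04. The 11 of 33 members called are to be read against that background, and no excess over it is claimed. In AhR-null cells 6 cytosolic genes rose (the same 5 and Lars) and 1 fell (Kars), with a median of 0.25. There 1 mitochondrial gene rose (Fars2) and 2 fell (Rars2 and Lars2), with a median of -0.08. Of all genes 22.6% were called in AhR-null cells, 10.8% higher and 11.9% lower, around an overall median of -0.04. The AhR-null counts are to be read against these shares, and no excess over them is claimed either.

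Markers of cell types changed in suspension too. Krt8 and Krt18, epithelial keratins on the hepatocyte list, rose in both lines (Krt18 by 2.12 ± 0.18 and 1.47 ± 0.18, Krt8 by 1.04 and 0.70). Hnf4a, a hepatocyte transcription factor, fell by 0.44 ± 0.14 in reconstituted cells and read 0.32 in AhR-null cells, where it did not pass (limma). Trf (-0.30 and -0.24) and Serpina1a (-0.11 and -0.23) read lower in both lines and passed in neither (limma). So 2 of the 5 tested hepatocyte markers, both keratins, rose and 1 fell in reconstituted cells, and 2 and 0 in AhR-null cells. The log2 of the summed level of the 5 went from 9.02 to 9.37 with DMSO to 10.00 to 10.50 in suspension in reconstituted cells. In AhR-null cells it went from 9.37 to 9.52 to 10.09 to 10.25. This sum includes the keratins and does not show that the other hepatocyte markers rose. Of 9 tested mesenchymal and stellate markers 3 rose and 2 fell in each line. Vim (0.76 and 0.71), Dcn (0.48 and 0.36) and Pdgfrb (0.55 and 0.96) rose, and Tagln (-0.71 and -1.82) and Des (-0.97 and -0.86) fell. Col1a1, Col1a2, Acta2 and Col3a1 passed in neither line (limma). The summed level was 14.63 to 14.69 and 14.74 to 14.84 in reconstituted cells. It was 14.92 to 14.97 and 14.90 to 14.96 in AhR-null cells, and such a sum can hide opposing changes. Sox9, 1 of 3 bile duct markers, rose by 1.62 ± 0.22 and 1.56 ± 0.22, and the summed level of the 3 went from 10.84 to 11.15 to 12.46 to 12.68 and from 10.63 to 11.13 to 12.01 to 12.83. Krt19 read 0.48 and 0.23 and Krt7 -0.235 and -0.141, and neither passed in either line (limma). Csf1r, 1 of 2 macrophage markers, rose by 1.35 ± 0.14 and 1.38 ± 0.14, with a summed level of 6.83 to 7.08 and 7.77 to 7.92, then of 7.17 to 7.31 and 7.77 to 7.94. Lyz2, the other macrophage marker, read -0.35 ± 0.24 and -0.51 ± 0.24 and passed in neither line (limma). The single endothelial marker tested did not pass (limma), and its level lay between 4.43 and 5.32 in these 4 groups. The part of these marker changes in the synthetase values was not tested.

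Within a line, arrays of the same replicate number deviated together, and a fit with that number as a block called more of everything. It gave 12 members higher and 8 lower in reconstituted cells, where 48.7% of all genes were called (21.2% higher, 27.5% lower). In AhR-null cells it gave 11 higher and 8 lower against 47.2% of all genes (21.1% and 26.1%). In reconstituted cells 11 of the 19 cytosolic genes were higher in suspension in all 3 same-numbered pairs and 5 were lower in all 3, and of the 14 mitochondrial genes 2 were higher and 7 lower, where 29.1% of all genes were higher and 37.2% lower in all 3. In AhR-null cells these counts were 10 and 5 for the cytosolic and again 2 and 7 for the mitochondrial genes, against 28.6% and 35.8% of all genes. The arrays of suspension and DMSO did not overlap for 10 members higher and 8 lower in reconstituted cells, against 19.2% and 26.6% of all genes, and for 8 and 6 in AhR-null cells, against 14.4% and 17.2%.

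**Figure D1:**
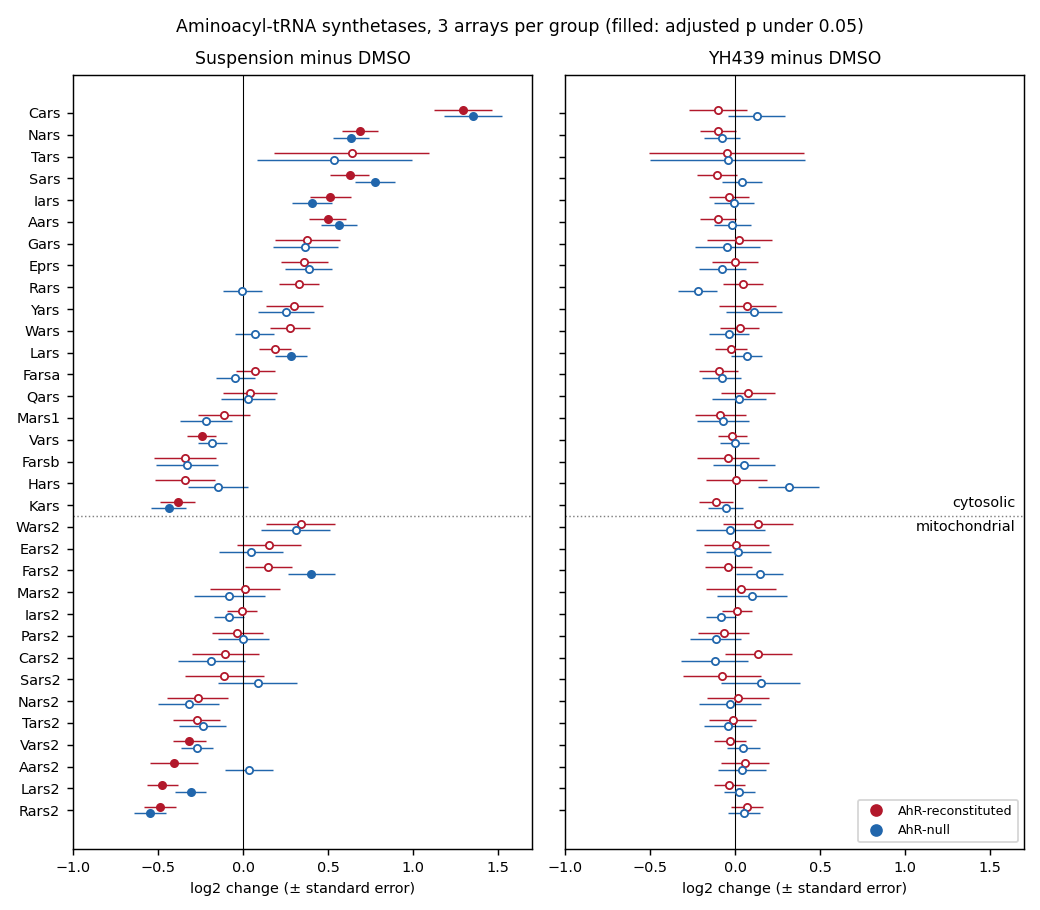
Log2 change of each of the 33 tested synthetase genes (x axis, with standard error) in suspension (left) and with YH439 (right) against DMSO, for reconstituted cells in red and AhR-null cells in blue, 3 arrays per group. Filled points passed an adjusted p of 0.05: in suspension they run from Cars at 1.35 down to Rars2 at -0.55, and with YH439 no point is filled.

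By the brightest probe of each gene, Cars, the cysteine enzyme, had the largest rise. By the mean of all kept probes of a gene its log2 change was 0.67 and 0.61, below the 0.89 and 0.82 of Sars and the 0.69 and 0.63 of Nars. For the brightest probe its log2 level was 7.97, 7.69 and 7.67 on the adherent reconstituted arrays and 9.28, 8.88 and 9.05 in suspension. In AhR-null cells it was 7.36, 7.39 and 7.66 with DMSO and 8.50, 8.82 and 9.13 in suspension. The groups were apart by more than their own width in both lines. This was a rise of 2.45-fold in reconstituted cells (log2 change 1.29 ± 0.17 SE, adjusted p = 5.4e-05, limma) and 2.55-fold in AhR-null cells (1.35 ± 0.17, adjusted p = 3.8e-05, limma).

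Nars, which charges the asparagine tRNA, lay at 10.16, 10.26 and 10.27 with DMSO and at 10.81, 10.98 and 10.96 in suspension in the reconstituted line. The AhR-null arrays read 10.01, 9.90 and 10.22, then 10.63, 10.71 and 10.68. Every suspended array lay above every adherent one. The rise was 1.61-fold in reconstituted cells (log2 0.69 ± 0.11, limma adjusted p = 0.00024) and 1.55-fold in AhR-null cells (0.63 ± 0.11, adjusted p = 0.00052, and 0.072 with median scaling).

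For Sars, the serine enzyme, the reconstituted arrays gave 9.72, 9.81 and 9.59 with DMSO and 10.10, 10.50 and 10.42 in suspension. The AhR-null arrays gave 9.27, 9.34 and 9.49 with DMSO and 10.07, 10.08 and 10.29 in suspension. The groups did not overlap, although replicate 1 of the reconstituted line moved least, by 0.38 against 0.68 and 0.82 in the other pairs. Its rise was 1.54-fold (0.63 ± 0.12, limma adjusted p = 0.0010) in reconstituted and 1.71-fold (0.78 ± 0.12, adjusted p = 0.00019) in AhR-null cells.

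Aars, the alanine enzyme, had log2 levels of 11.70, 11.96 and 11.93 with DMSO and 12.20, 12.52 and 12.36 in suspension in reconstituted cells. In AhR-null cells they were 11.55, 11.54 and 11.56 with DMSO, an SD of 0.008, and 12.06, 12.24 and 12.05 in suspension. Both lines were free of overlap. Aars rose 1.41-fold (0.50 ± 0.11, limma adjusted p = 0.0033) and 1.48-fold (0.56 ± 0.11, adjusted p = 0.0014), and with the arrays scaled on their medians in place of quantiles neither change passed (adjusted p = 0.096 and 0.139).

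The other cytosolic enzymes outside the multisynthetase complex were less uniform. They are called free here only in the sense that they are not part of that complex. Vars, for valine, fell by 0.24 ± 0.09 in reconstituted cells, with an adjusted p of 0.048 (limma) that leaving out any of 14 of the 18 arrays took past 0.05 (up to 0.147), and its AhR-null value was -0.18. With the replicate block Vars was lower in both lines (limma). Gars, for glycine, read 0.38 ± 0.19 and 0.37 ± 0.19, which did not pass in the fit without a block. It passed with the replicate block (limma adjusted p = 0.0012 and 0.0015), on the authors' processed values (0.024 and 0.046), with 3 array sets, inferred from the arrays themselves, as a block (0.0010 and 0.0013) and without the 6 dimmest arrays (0.0021 and 0.015). Wars, for tryptophan, read 0.28 in reconstituted cells, where it passed with the replicate block (limma adjusted p = 0.0028), on the authors' values (0.0035) and with the array-set block (0.0062) but not without them, and 0.07 in AhR-null cells. Farsa and Farsb are the subunits of the phenylalanine enzyme, and their values parted: Farsa read 0.07 and -0.05, while Farsb read -0.34 and -0.33 and was lower with the block in both lines (limma adjusted p = 0.0012 and 0.0017). Hars (-0.34 and -0.15) and Yars (0.30 and 0.25) passed in neither line under either fit.

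Tars, the threonine enzyme, had the widest spread between replicates of any member. Its adherent AhR-null arrays read 10.20, 10.18 and 8.77 and the suspended ones 10.58, 10.91 and 9.26. Replicate 3, which is among the dimmest arrays, lay more than 1 log2 unit below the others in each AhR-null group. The reconstituted arrays read 9.05, 9.39 and 9.52 with DMSO and 9.79, 9.76 and 10.32 in suspension, so all 3 pairs were higher in each line while the AhR-null groups overlapped. The change was 0.64 ± 0.46 and 0.54 ± 0.46 (limma adjusted p = 0.36 and 0.46), and the standard error fell to 0.09 with the block (adjusted p = 0.00015 and 0.00057). Tars was described at this length after its values were seen.

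Among the 7 tested enzymes of the multisynthetase complex, 1 rose and 1 fell in reconstituted cells (median 0.19) and 2 rose and 1 fell in AhR-null cells (median 0.03). The 12 free cytosolic genes gave 4 and 1 (median 0.34), then 4 and 0 (median 0.31). Of all genes 10.7% rose and 13.4% fell in reconstituted cells, and 10.8% and 11.9% in AhR-null cells. A difference between complex and free genes was not tested, and none is claimed. Iars, for isoleucine, rose by 0.51 ± 0.12 (1.43-fold, limma adjusted p = 0.0053) and by 0.41 ± 0.12 (1.32-fold, adjusted p = 0.022). Its AhR-null call ended without DMSO replicate 3 (adjusted p = 0.093) and without suspension replicate 1 or 2 (0.058 and 0.11). By the mean of all kept probes Iars read 0.51 and 0.21 and passed in neither line (limma adjusted p = 0.091 and 0.53). Its probe ILMN_2810047 read 0.60 and 0.42. The probes ILMN_1224044 (0.52 and 0.06) and ILMN_1227208 (0.42 and -0.04) were near 0 in AhR-null cells. Lars, for leucine, rose by 0.28 ± 0.09 in AhR-null cells (adjusted p = 0.041, limma), a call that ended without any of 10 of the 18 arrays (adjusted p up to 0.126), and read 0.19 in reconstituted cells, where it did not pass without a block and passed with it (adjusted p = 0.017), on the authors' values (0.0099), with the array-set block (0.015) and without the 6 dimmest arrays (0.032).

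Kars, the lysine enzyme of cytosol and mitochondrion, went the other way. Reconstituted cells read 10.40, 10.69 and 10.48 with DMSO and 10.12, 10.20 and 10.11 in suspension. AhR-null cells read 10.23, 10.22 and 10.32, then 9.83, 9.82 and 9.82. The suspended arrays lay below all adherent ones of their line. Kars fell by 0.38 ± 0.10 (limma adjusted p = 0.012) and by 0.44 ± 0.10 (adjusted p = 0.0060). The reconstituted call ended without DMSO replicate 2 (adjusted p = 0.070), with median scaling (0.15) and on the authors' processed values (0.10).

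Eprs, the fused glutamate and proline enzyme, read 0.36 ± 0.14 and 0.39 ± 0.14, short of the threshold (limma adjusted p = 0.068 and 0.054) and past it with the block (0.00035 and 0.00024). Rars, for arginine, read 0.33 ± 0.12 in reconstituted cells (limma adjusted p = 0.051, 0.0020 with the block) and 0.00 in AhR-null cells. Qars, for glutamine, read 0.04 and 0.03 and passed under neither fit. Mars1, for methionine, read -0.11 and -0.22, the latter lower with the block (limma adjusted p = 0.029). By fold of the catalytic domain, 2 of the 9 class I cytosolic genes rose and 1 fell in reconstituted cells and 3 and 0 in AhR-null cells. Of the 9 class II genes 3 rose and 1 fell in each line, where 10.7% and 10.8% of all genes rose and 13.4% and 11.9% fell.

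**Figure D2:**
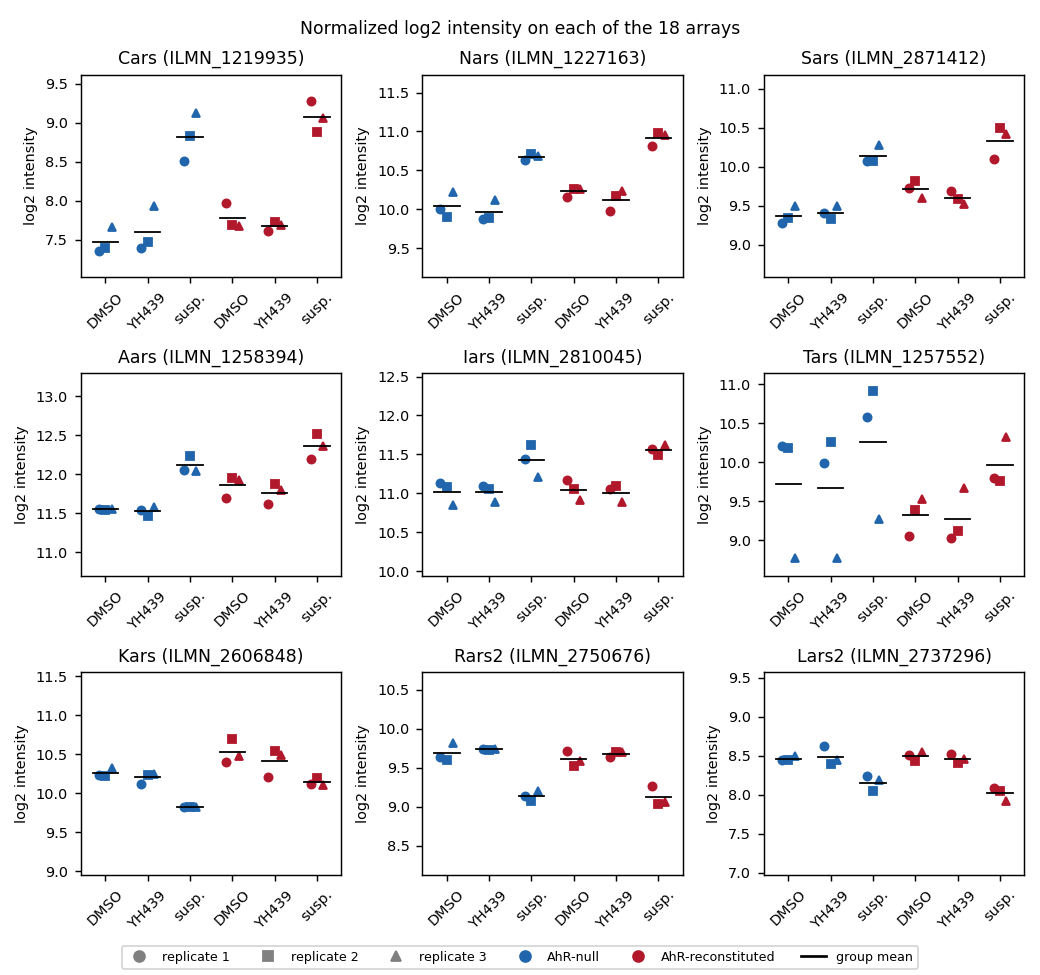
Normalized log2 intensity (y axis, of the same height in every panel) on each of the 18 arrays for 9 synthetase genes, with AhR-null cells in blue, reconstituted cells in red, a marker shape for each replicate number and a bar at the group mean. The suspended Cars, Nars, Sars, Aars and Iars arrays lie above the DMSO arrays of their line, those of Kars, Rars2 and Lars2 lie below, and Tars replicate 3 of the AhR-null line lies apart at 8.77 to 9.26.

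Rars2, the mitochondrial arginine enzyme, fell the most of all members. With DMSO the reconstituted arrays read 9.72, 9.53 and 9.59, and in suspension 9.27, 9.04 and 9.06. The AhR-null arrays read 9.63, 9.61 and 9.82, then 9.13, 9.07 and 9.21. The groups were apart in both lines, and the 6 same-numbered pairs changed by between -0.45 and -0.61. The fall was 0.49 ± 0.09 (1.40-fold, limma adjusted p = 0.0014) and 0.55 ± 0.09 (1.46-fold, adjusted p = 0.00060).

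Lars2, the mitochondrial leucine enzyme, read 8.51, 8.43 and 8.55 with DMSO and 8.09, 8.05 and 7.92 in suspension in reconstituted cells. In AhR-null cells it read 8.45, 8.45 and 8.50, then 8.24, 8.04 and 8.19. Lars2 fell by 0.48 ± 0.09 (limma adjusted p = 0.0014) and by 0.31 ± 0.09 (adjusted p = 0.023), and the latter call ended without any of the 3 AhR-null DMSO arrays (adjusted p = 0.054 to 0.064) or without suspension replicate 2 (0.10). Vars2, for valine, fell by 0.32 ± 0.10 in reconstituted cells (limma adjusted p = 0.025, and 0.064 to 0.098 without any of 4 arrays, DMSO replicates 1 and 3 and suspension replicates 2 and 3) and read -0.27 in AhR-null cells (adjusted p = 0.054). Aars2, for alanine, fell by 0.40 ± 0.14 in reconstituted cells (limma adjusted p = 0.049), but its signal was near background: it was detected on 3 of 3 arrays with DMSO, on 1 of 3 in suspension and on 1 of 3 in every AhR-null group, and the call ended without any of 12 of the 18 arrays (adjusted p up to 0.207).

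Fars2, the mitochondrial phenylalanine enzyme, was the single mitochondrial gene to rise, in AhR-null cells by 0.40 ± 0.14 (limma adjusted p = 0.048), and that call ended without any of 14 of the 18 arrays (adjusted p up to 0.134). In reconstituted cells it read 0.15 ± 0.14. Wars2, for tryptophan, read 0.34 and 0.31 and was higher with the block in both lines (limma adjusted p = 0.0061 and 0.010). Tars2 read -0.27 and -0.24, lower with the block in reconstituted cells (limma adjusted p = 0.033). Nars2 read -0.27 and -0.32, lower with the block in AhR-null cells (adjusted p = 0.046), and was detected on 12 of 18 arrays. Iars2, among the brightest of the mitochondrial probes, read -0.01 and -0.08, with group means between 10.57 and 10.81 across all 6 groups. The other 5 tested mitochondrial genes (Cars2, Ears2, Mars2, Pars2 and Sars2) lay between -0.19 and 0.15 and passed in neither line under either fit.

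The gene values rest on the brightest kept probe, and 21 members had more than 1. Fitted probe by probe, 10 of the 65 member probes were higher and 6 lower in reconstituted cells, where 19.6% of all 22203 kept probes passed, and 9 and 5 in AhR-null cells, where 18.8% did. The probes of Rars2 gave like values, -0.49, -0.58 and -0.72 in reconstituted and -0.55, -0.57 and -0.68 in AhR-null cells. The 3 Cars probes did not: the brightest (ILMN_1219935), detected on all 18 arrays and listed against a cDNA clone, gave 1.29 and 1.35, while ILMN_2690423, detected on 13 arrays, gave 0.39 and 0.45, and ILMN_2887824, detected on 3, gave 0.33 and 0.04, none of them past the threshold. The Cars call and the size of its rise therefore rest on a single probe. For Eprs the probe ILMN_2557957, also listed against a cDNA clone, rose by 1.15 ± 0.13 and 1.31 ± 0.13. The probe ILMN_3148398 rose by 0.41 ± 0.09 and 0.49 ± 0.09, near the 0.36 and 0.39 of the probe that stood for the gene. A further Sars probe (ILMN_2712900) rose by 1.15 ± 0.11 and 0.87 ± 0.11, and a further Rars probe (ILMN_2907642) by 0.32 ± 0.11 in reconstituted cells (limma adjusted p = 0.044 over all probes) with -0.01 in AhR-null cells.

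**Figure D3:**
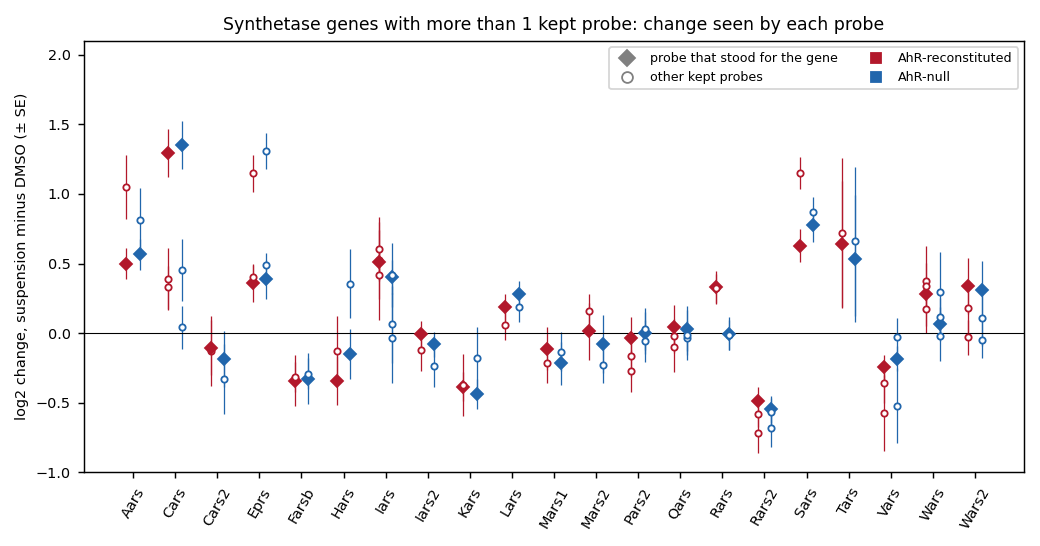
Log2 change in suspension against DMSO (y axis, with standard error) for every kept probe of the 21 synthetase genes with more than 1, in reconstituted (red) and AhR-null cells (blue). Diamonds mark the probe that stood for its gene and open circles the other kept probes. In reconstituted cells the probes lie close together for Rars2 and far apart for Cars (1.29 against 0.39 and 0.33). For Eprs 1 probe lies apart (1.15 against 0.36 and 0.41).

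The calls of the lines overlapped. All 5 genes that rose in reconstituted cells rose in AhR-null cells too, and they were 71.4% of the 7 there. Of the 6 that fell in reconstituted cells 3 (50%) fell in AhR-null cells, which were all of those called there (Kars, Lars2 and Rars2). With the block, 10 genes were higher in both lines (83.3% of the reconstituted and 90.9% of the AhR-null calls) and 6 lower (75% of each). Over all genes the lines shared 943 higher calls (79% of the reconstituted and 78.5% of the AhR-null ones) and 1029 lower calls (68.7% and 77.8%), and with the block 1845 higher (78% and 78.4%) and 2319 lower (75.7% and 79.7%), so calls were shared at large and not in the synthetases alone. Across the 33 genes the changes had the same sign in 27, and their correlation was 0.94 (Pearson) and 0.90 (Spearman), a description over genes measured on arrays processed together. Over all 11149 genes 81.3% had the same sign, and the correlation was 0.89 and 0.83.

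The test of the difference itself, the suspension response of reconstituted minus that of AhR-null cells, called 0 of 33 members (lowest limma adjusted p = 0.9998) and 1 of the 11149 genes (0.00897%). With the block it called 0 members and 0.17% of genes. At an unadjusted p under 0.05 there was 1 member, Aars2, with a difference of -0.44 (95% interval -0.86 to -0.01), whose signal was near background. Rars followed with a difference of 0.33 (-0.02 to 0.68). The differences of all members lay between -0.44 and 0.33. Their 95% intervals, not adjusted for the number of genes, had a median half-width of 0.42. The adjusted test passed over larger differences too. Cyp1b1, a known AhR target, did not pass at 1.52 ± 0.38 (limma adjusted p = 0.91). The 0 of 33 therefore does not show that the members responded alike in the lines.

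YH439 called no member in either line. Of 3 known AhR targets tested, Tiparp rose by 1.48 ± 0.19 with YH439 in reconstituted cells (limma adjusted p = 0.0016), while Nqo1 at 1.00 ± 0.19 (adjusted p = 0.055) and Cyp1b1 at 1.04 ± 0.27 (adjusted p = 0.39) did not pass. In AhR-null cells they read -0.01, 0.11 and -0.08, and the difference between the lines passed for none (limma, Tiparp 1.48 ± 0.27, adjusted p = 0.12). Tiparp also rose in suspension, by 1.39 ± 0.19 in reconstituted and 0.92 ± 0.19 in AhR-null cells (limma adjusted p = 7.5e-05 and 0.0024). The other targets parted by line there. Nqo1 read 0.84 ± 0.19 and -0.22 ± 0.19 (limma adjusted p = 0.0048 and 0.48). Cyp1b1 read 0.42 ± 0.27 and -1.10 ± 0.27 (limma adjusted p = 0.31 and 0.0075). The difference between the lines in suspension passed for none of the 3 (limma, lowest adjusted p = 0.91). Of the 33 members, 0 passed with YH439 in reconstituted cells, where 0.135% of genes did, and 0 in AhR-null cells, where 0% did. At an unadjusted p under 0.05 the counts were also 0 in both lines, and with the replicate block 0 (against 0.861% and 0.0179% of genes). Member changes lay between -0.11 (Kars) and 0.14 in reconstituted and between -0.22 (Rars) and 0.31 (Hars) in AhR-null cells, with a median half-width of the 95% intervals of 0.30. The cytosolic medians were -0.04 and -0.02 and the mitochondrial ones 0.01 and 0.02, the last of which was -0.09 with median scaling. The response of reconstituted minus that of AhR-null cells lay between -0.31 and 0.27 and passed for 0 members, against 0.0269% of genes (limma, with 0 members at an unadjusted p under 0.05). Cars read 7.61, 7.73 and 7.69 with YH439 in reconstituted cells, within the range of its DMSO arrays but for the first, and 7.39, 7.47 and 7.92 in AhR-null cells.

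Under DMSO the reconstituted line had somewhat higher values for most members, and none passed. Of the 33, 28 were higher than in the AhR-null line, 17 of them among the 19 cytosolic genes, where 56.8% of all genes were higher. The medians were 0.16 for cytosolic and 0.04 for mitochondrial genes against 0.04 for all genes, and the mitochondrial median was -0.06 on the authors' processed values. The 4 with an unadjusted p under 0.05 were Sars at 0.34 ± 0.12, Aars at 0.31 ± 0.11, Kars at 0.27 ± 0.10 and Aars2 at 0.38 ± 0.14 (lowest limma adjusted p = 0.35), and 0.547% of all genes passed. Without the 6 dimmest arrays 10 members passed, among 23.8% of all genes. Of these 9 were higher, from Eprs at 0.27 to Yars at 0.43, and Tars was lower at -0.72. The labels name no chip or batch. From their brightness and shared deviations the arrays were put into 3 sets: the 6 dimmest, AhR-null replicates 1 and 2, and reconstituted replicates 2 and 3. If these sets are real, each line lies in a set of its own once the dimmest arrays are left out, and line and set then cannot be told apart. Between the dim arrays themselves, reconstituted replicate 1 and AhR-null replicate 3, 13 of the 19 cytosolic genes were higher in the reconstituted array, with a median of 0.08.

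The lists of genes around the synthetases are to be read against the shares of all genes given above, 10.7% higher and 13.4% lower in reconstituted cells and 10.8% and 11.9% in AhR-null cells, or with the replicate block 21.2% and 27.5%, then 21.1% and 26.1%. Of the complex scaffolds Aimp1, Aimp2 and Eef1e1, 0 of 3 passed in either line (limma, with 1 and 2 at an unadjusted p under 0.05), and with the block Aimp2 was higher (0.34 and 0.22) and Aimp1 (-0.26 and -0.24) and Eef1e1 (-0.19 and -0.38) lower in both. Of 4 tested synthetase-like and editing factors, 2 fell in each line. Dtd1, which removes D-amino acids from tRNA, fell by 0.66 ± 0.18 and 0.59 ± 0.18 (limma adjusted p = 0.013 and 0.026). Tarsl2, a threonine synthetase paralogue, fell by 0.58 ± 0.20 in reconstituted cells only just past the threshold (adjusted p = 0.0497, limma), and Aarsd1, an editing protein for mischarged alanine tRNA, by 0.96 ± 0.28 in AhR-null cells (adjusted p = 0.022, limma), with values of -0.23 and -0.61 in the respective other line.

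Of 17 tested genes of tRNA maturation, 1 rose and 4 fell in reconstituted cells and 1 rose and 3 fell in AhR-null cells, beside 13.4% and 11.9% of all genes lower. Rpp25, an RNase P protein, rose by 0.80 ± 0.22 and 0.73 ± 0.22. Tsen34, a catalytic subunit of the tRNA splicing endonuclease, fell by 0.76 ± 0.17 and 0.53 ± 0.17, and Pop5, another RNase P protein, by 0.35 ± 0.09 and 0.36 ± 0.09. Of the 6 mitochondrial and selenocysteine charging genes and the 6 elongation factors, 0 passed in either line (limma, with 0 in reconstituted and 1 and 0 in AhR-null cells at an unadjusted p under 0.05), and their medians lay between -0.25 and -0.12. The block called 3 of 6 lower of the former in each line and 2 and 1 of 6 of the latter, where it called 27.5% and 26.1% of all genes lower.

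The list of ATF4 and amino acid synthesis genes stood at 18 higher and 0 lower of 19 in reconstituted cells, with a median of 0.78 and a range of 0.51 to 3.51, and at 15 and 0 of 19 in AhR-null cells with a median of 0.84. Trib3, a pseudokinase and ATF4 target, rose by 3.00 ± 0.11 and 2.97 ± 0.11. Chac1, which degrades glutathione, rose by 2.44 ± 0.14 and 2.46 ± 0.14, and Ddit3, the transcription factor CHOP, by 3.51 ± 0.24 and 3.86 ± 0.24. Atf4 itself read 0.69 ± 0.36 and 0.50 ± 0.36 and did not pass, but did with the block (limma adjusted p = 5.0e-06 and 5.9e-05). Of 7 tested eIF2 alpha kinases, phosphatase subunits and partners, 2 rose in each line: Ppp1r15a, the inducible eIF2 alpha phosphatase subunit, by 2.22 ± 0.19 and 2.34 ± 0.19, and Impact, a regulator of the kinase GCN2, by 0.72 ± 0.11 and 0.80 ± 0.11. With YH439, 0 members of these lists passed in either line (limma, with 1 ATF4 list gene at an unadjusted p under 0.05 in reconstituted cells).

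**Figure D4:**
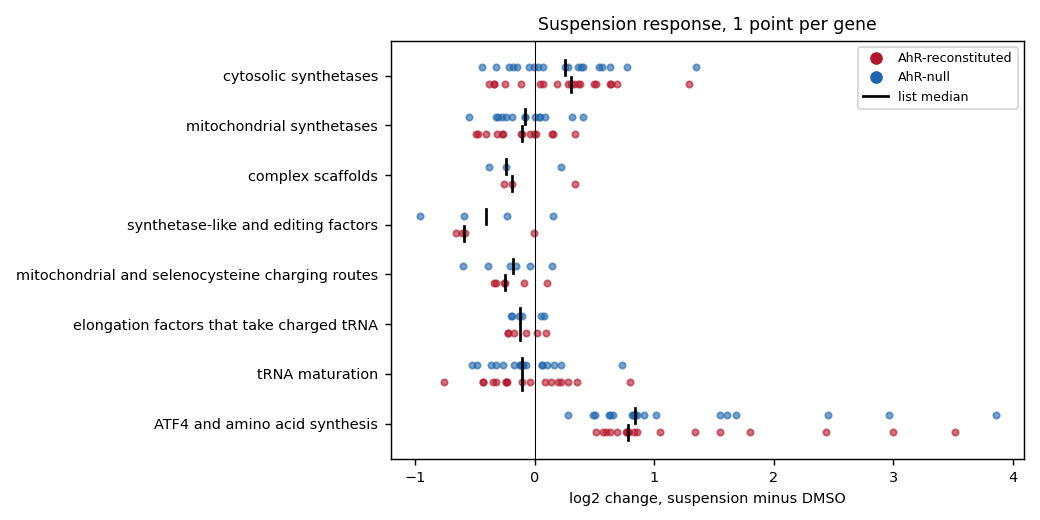
Log2 change in suspension against DMSO (x axis) of each tested gene in the cytosolic and mitochondrial synthetases and in 6 lists of tRNA charging and amino acid supply, 1 point per gene, reconstituted cells in red and AhR-null cells in blue, with a bar at the list median. The cytosolic synthetases centre at 0.30 and 0.25, the mitochondrial ones at -0.11 and -0.08, and every point of the ATF4 and amino acid synthesis list lies above 0.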

How the data were processed

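RNA (500 ng per array) was read on 18 arrays with BeadStudio, version not given, per the submitters' processing notes. The deposited table of non-normalized values gives the authors' bead intensity of each probe, already background-subtracted, and its detection p-value. A deposited matrix gives their processed intensity for these arrays, with a floor of 20, a median of 20 in every column and a rank correlation of at least 0.881 with its own array. It is linear and runs in the direction of the signal, and its scaling between arrays stays unknown.

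Under R 4.3.3, neqc of limma 3.58.1 turned the intensities into log2 values: normexp background correction (negative controls from the detection p-values), an offset of 16, which understates changes of dim probes, and quantile normalization. A probe was kept if its detection p was under 0.05 on 3 or more arrays (22203 of 45281). The array annotation gave 1 symbol to 34885 probes, several to 18 and none to 10378, and each of the 11149 genes was represented by its brightest kept probe. A mean per group was fitted over 18 arrays (lmFit and eBayes, 12 residual degrees of freedom, two-sided, Benjamini-Hochberg within each of 7 comparisons). Values after ± are standard errors. The number of arrays and the signal over background limit the precision. The tests were checked on simulated data with independent noise on each array. That check left out the shared deviations of same-numbered arrays described below and does not cover them.

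Same-numbered arrays of a line deviated from their group means together (18 pairs, r 0.174 to 0.864), those of different lines mostly not (27 pairs, r -0.696 to 0.194), so the number was used as a block within a line. Alternatives were other background corrections, scalings, filters, probe rules, blocks, sample sets and left-out arrays. Values on every array were given for the members with the smallest p in suspension, and other lists named up to 3 genes. Genes named beyond this were chosen after their values were seen. The members, lists and motifs were chosen with earlier results of these data known. Promoter windows are RefSeq's for GRCm38.p6, and 9 members had no promoter in the table.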

Additional observations from a re-analysis of the deposited data

How the results depend on the processing

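No called change of a member turned its direction under an alternative, but medians near 0 did change sign. Of 30 alternatives each, the mitochondrial median in suspension changed sign under 1 in AhR-null cells (0.0185 without DMSO replicate 3) and that between the lines under DMSO under 1 (-0.0642 on the authors' values). The cytosolic and mitochondrial medians changed sign under 5 and 7 for the difference in the suspension response, under 1 and 6 for YH439 in reconstituted cells, under 2 and 5 in AhR-null cells and under 1 and 5 for the difference of these. The other 4 medians kept their sign. The count of members past the threshold in suspension was 11 in reconstituted cells and became 5 with median scaling and 20 with the replicate block or with the 3 array sets as a block (inferred from the brightness and shared deviations of the arrays, as the labels name no chip or batch), and 8 to 13 with 1 array left out. In AhR-null cells it was 10 and became 5 with median scaling or with only the compared groups fitted, 19 with the replicate block, 18 with the array-set block and 7 to 12 with 1 array left out. Over all genes the replicate block raised the calls from 2692 to 5430 and from 2525 to 5260. Under DMSO, 0 members passed between the lines and 10 did without the 6 dimmest arrays. The other counts stayed at 0.

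The cytosolic median in suspension was 0.42 in reconstituted and 0.41 in AhR-null cells on the authors' processed values. In AhR-null cells it was 0.17 with no background correction, 0.18 with normexp by maximum likelihood and 0.0912 with median scaling, where the mitochondrial median was -0.20. Median scaling also gave cytosolic medians of 0.12 for the difference in the suspension response, -0.10 for YH439 in AhR-null cells and 0.11 for the difference in the YH439 response (mitochondrial 0.14). It moved the median of all genes to -0.13 for suspension in AhR-null cells, to 0.09 for the difference in the suspension response and to 0.12 for the difference in the YH439 response. Between the lines under DMSO the cytosolic median was 0.27 once the dimmest arrays were left out, 0.23 with median scaling and 0.089 on the authors' values. Higher genes made up 44.4% and 47.6% of all calls in suspension, 56.8% and 54.2% on the authors' values and 46.9% and 34.2% with median scaling.

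With 1 array left out, cytosolic and mitochondrial medians ranged from 0.27 to 0.34 and from -0.14 to -0.07 for suspension in reconstituted cells, and from 0.0707 to 0.26 and from -0.21 to 0.0185 in AhR-null cells. They ranged from -0.0706 to 0.0722 and from -0.10 to 0.034 for the difference between these. For YH439 they ranged from -0.06 to 0.00 and from -0.04 to 0.05 in reconstituted cells, from -0.06 to 0.03 and from -0.09 to 0.08 in AhR-null cells, and from -0.0908 to -0.0055 and from -0.06 to 0.07 for the difference. Between the lines they ranged from 0.14 to 0.30 and from 0.0197 to 0.16. Of the single calls in suspension, those of Cars, Sars and Rars2 in both lines and of Nars in reconstituted cells held under every alternative run. Each alternative kept the brightest Cars probe, alone or in the mean, and the other Cars probes passed in neither line (limma). Median scaling ended those of Aars and Lars2 in both lines, of Kars, Vars, Vars2 and Aars2 in reconstituted and of Nars, Iars, Lars and Fars2 in AhR-null cells. The authors' values ended Kars, Vars and Aars2 in reconstituted and Lars2 in AhR-null cells, and the mean of all kept probes, added after the data were seen, ended Iars in both lines, Vars in reconstituted and Kars in AhR-null cells. Fitting only the compared groups ended Vars and Aars2 in reconstituted and Kars, Iars, Lars, Lars2 and Fars2 in AhR-null cells. Without the 6 dimmest arrays 2 of the calls were lost, Vars and Aars2 in reconstituted cells. The cause of these shifts was not tested.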
